A study of Mus musculus with 3 samples.

Results

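The genes described here encode the collagens and proteoglycan of cartilage matrix, *Col2a1*, *Col9a1*, *Col9a2*, *Col9a3*, *Col11a1*, *Col11a2*, *Acan*, *Matn4* and *Col10a1*. They were taken as a list of 9 genes by symbol from single-cell RNA-seq counts of 3 mouse libraries. Of the 9 genes, 8 had a row in all 3 tables, among 27755 listed genes in the D10 culture and the E14.5 tail and 25936 in D6 PM. *Col10a1* was analysed in D6 PM and was not analysed in the culture or the tail.

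The D10 culture was a monolayer grown from mouse embryonic stem cells (mESCs) that carry the ScxGFP tendon reporter. Embryoid bodies were first treated with LDN-193189 (500 nM), which blocks BMP receptors, and then with LDN-193189 plus 5 μM CHIR, which activates WNT signaling, until D6. From D6 to D10 the cells received 10 ng/mL TGFβ1, 100 nM SAG, a hedgehog agonist, and 10 ng/mL FGF2. The D6 PM library, labelled as embryoid bodies, was made at day 6 of the same protocol, at the paraxial mesoderm stage and before these factors. The E14.5 tail library was made from mouse embryos of ScxGFP dams, and the number of tails pooled is not given in the sources used here. All 3 groups share the reporter background, the methods name no sort of the cells loaded, and each group is 1 library. Cells of 1 library are not replicates, so no test between conditions could be made and no p-values are given. Intervals in parentheses are exact 95% intervals that cover counting error only.

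Fibrils of hyaline cartilage are built mainly of collagen II, with collagen XI inside the fibril and collagen IX on its surface. *Col2a1* supplies the chain of collagen II, which also forms part of collagen XI. Collagen IX is assembled from the products of *Col9a1*, *Col9a2* and *Col9a3*, and collagen XI from those of *Col11a1*, *Col11a2* and *Col2a1*. *Acan* encodes aggrecan, the large proteoglycan that gives cartilage its resistance to compression, *Matn4* encodes matrilin 4, an adaptor protein of the matrix, and *Col10a1* marks hypertrophic chondrocytes. SOX9, with SOX5 and SOX6, is known to activate many of these genes. Fibrocartilage, found where tendon inserts into bone and in the intervertebral disc, combines this matrix with the collagen I of tendon.

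RefSeq promoter sequences (GRCm38.p6) were found for 7 of the 9 genes, with 9 start sites. Those of *Acan* and *Col11a2*, the members whose levels differed most between cartilage-like and tendon cells of both libraries, and of *Col11a1*, which supplies the partner chain of *Col11a2* and had the smallest such difference in the culture, are shown as the 250 bases before the start site. The annotated gene start lies within the stretch for *Col11a2* (chr17:34038919) and *Col11a1* (chr3:114030479). Most of the *Col11a2* stretch, with all its marked letters, and the end of the *Col11a1* stretch are therefore inside the gene. Capitals mark matches on either strand to the GC-box letters GGGCGG. In *Col11a2* they also mark the TATA-box letters TATAAA.
*Acan*, chr7:79052976-79053225, plus strand: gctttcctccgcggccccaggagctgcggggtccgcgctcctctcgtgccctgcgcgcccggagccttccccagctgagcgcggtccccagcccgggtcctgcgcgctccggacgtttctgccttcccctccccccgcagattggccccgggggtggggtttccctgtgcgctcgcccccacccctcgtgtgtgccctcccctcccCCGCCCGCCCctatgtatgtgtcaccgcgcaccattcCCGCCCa
*Col11a2*, chr17:34038888-34039137, plus strand: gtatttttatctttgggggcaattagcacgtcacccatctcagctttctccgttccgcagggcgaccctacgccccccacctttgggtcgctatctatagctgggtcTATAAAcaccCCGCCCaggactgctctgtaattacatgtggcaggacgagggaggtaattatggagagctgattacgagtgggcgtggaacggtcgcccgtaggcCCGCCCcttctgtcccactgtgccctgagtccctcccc
*Col11a1*, chr3:114030290-114030539, plus strand: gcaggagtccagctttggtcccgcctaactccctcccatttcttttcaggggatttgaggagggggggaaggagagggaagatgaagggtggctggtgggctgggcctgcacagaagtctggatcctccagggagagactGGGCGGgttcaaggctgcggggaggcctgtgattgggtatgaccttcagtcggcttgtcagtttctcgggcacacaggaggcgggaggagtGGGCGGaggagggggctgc
The *Acan* stretch was 74.4% G and C and held 3 matches to GGGCGG, of which 2 overlapped. The *Col11a2* stretch was 57.6% G and C, with 2 matches to GGGCGG and 1 to TATAAA, and the *Col11a1* stretch was 62.4% G and C, with 2 matches to GGGCGG. Over all 32851 RefSeq promoters, 32.7% held GGGCGG and 12.4% held TATAAA in a stretch of the same length. AACAAT and ACAAAG, letters that SOX proteins can bind, were searched on both strands as well. They were found in 9.42% and 16.5% of all promoters, and among the 9 stretches of the members there was 1 match, to ACAAAG in *Col10a1*. Such matches describe letters only, and their absence says only that these letters are not in this window.

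The culture library held 7821 cells with 53403944 unique molecular identifiers (UMIs, each marking 1 captured transcript), the tail library 2052 cells with 31343741 UMIs, and D6 PM 5954 cells with 51858825 UMIs. Median UMIs per cell were 5622, 13512 and 8171. The culture and the tail shared 4 cell barcodes, the culture and D6 PM 10, and the tail and D6 PM 3. Clusters are those of the authors, who integrated the culture with the tail and annotated cluster 0 as tendon, cluster 1 as proliferating tendon and cluster 2 as fibrocartilage. Cluster numbers here follow the study's marker gene tables, and the study's table of cluster composition lists some clusters under other numbers. D6 PM was clustered by the authors on its own. Its clusters are given by the 6 codes of the file, which were not matched to the D6 clusters the study describes. The study drew the clusters of the culture and the tail from highly variable genes, and which members were among them was not examined. It named cluster 2 from cartilage genes that include members, so that differences between clusters of 1 library are a description. Levels are given as CPM, UMIs of a gene per 1e+06 UMIs counted in those cells. The 3′ libraries count 1 transcript once whatever its length, but capture differs between genes, so that levels were compared between samples and not between genes.

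*Col2a1* was detected mainly in clusters 0, 1 and 2 of both libraries and, among clusters of at least 20 cells, was highest in cluster 2. Clusters 0, 1 and 2 of the culture had 218 (211-225), 499.6 (486-513) and 2271 CPM (2220-2323). The same clusters of the tail had 111 (104-117), 720.3 (695-746) and 4282 CPM (4212-4354). The order was the same in both libraries, and no 2 of the 3 intervals within a library overlapped. These 3 clusters together held 94.9% of the *Col2a1* UMIs of the culture and 97.1% of those of the tail. Outside them, the 38-cell tail cluster 13 with *Sox10*, a transcription factor gene of neural crest, had 196 CPM, and the epithelial cluster 7 of the culture had 91.7 CPM. The pluripotent cells of culture cluster 4 had 26.9 CPM and the erythroid cells of tail cluster 11 had 9.42 CPM, which serve here as background levels.

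**Figure D1:**
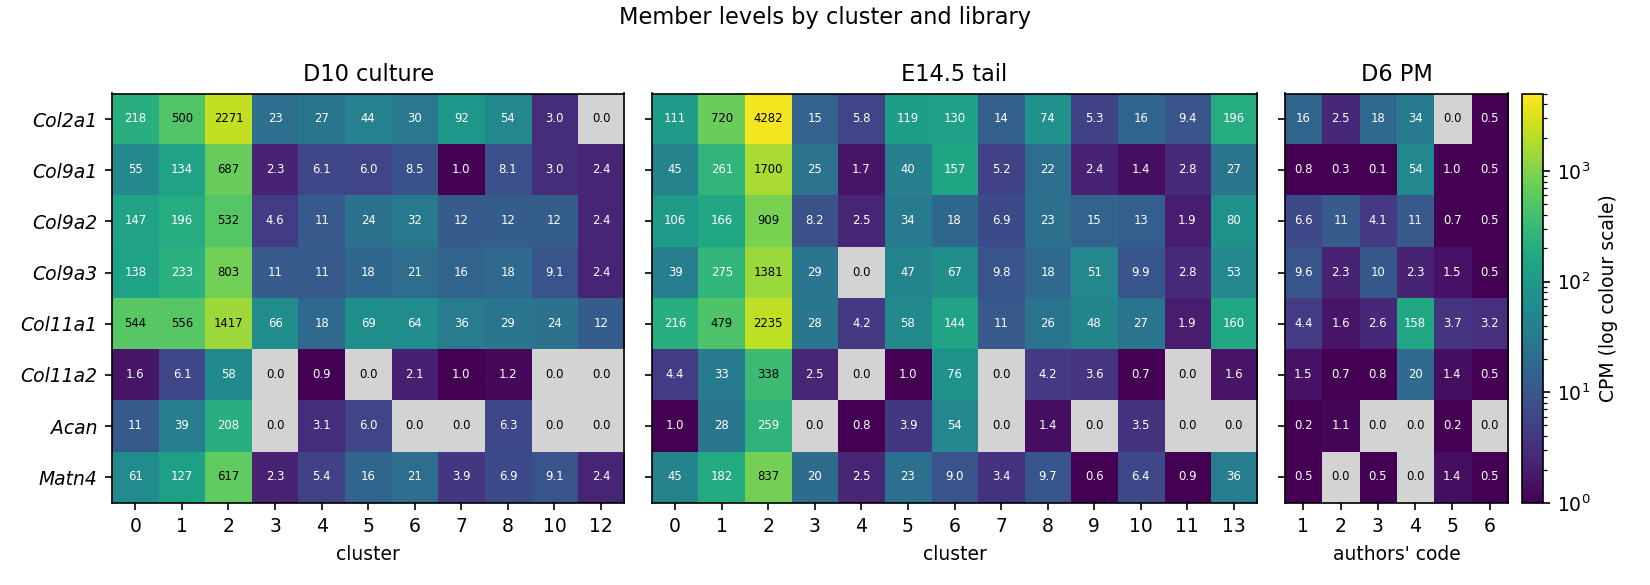
Level of 8 members (rows) in each cluster of at least 20 cells of the D10 culture and the E14.5 tail, and in each code of D6 PM (columns), as CPM of summed UMIs on a log colour scale with the value in each cell and grey for 0 UMIs. In the culture and the tail all 8 members had their highest value in cluster 2, where *Col2a1* reached 2271 and 4282 CPM.

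The other members had the same order of clusters and differed in how steep it was. A call here is a ratio of at least 2, among genes detected in 10% or more of the cells on one side. In the culture 8 of 8 members were called higher in cluster 2 than in cluster 0, of which *Acan* and *Col11a2* passed the detection filter only through cluster 2, as they did in the tail. In the same comparison 1.54% of all 7077 genes were called higher and 3.36% lower. In the tail all 8 members were called higher too, against 3.65% of 10654 genes called higher and 6.28% called lower. Cluster 2 was named from cartilage genes that include members, so nothing is read from these counts.

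Among the collagen IX genes, *Col9a1* was at 54.6, 134 and 687 CPM in clusters 0, 1 and 2 of the culture. In the tail the same clusters had 44.7, 261 and 1700 CPM (1656-1745 in cluster 2). *Col9a2* was at 147, 196 and 532 CPM in the culture and at 106, 166 and 909 CPM in the tail. *Col9a2* therefore had the shallowest gradient of the 3 genes, 3.62-fold (3.41-3.86) between clusters 2 and 0 in the culture and 8.59-fold (8.01-9.22) in the tail. *Col9a3* was at 138, 233 and 803 CPM in the culture and at 38.8, 275 and 1381 CPM in the tail, a gradient of 5.84-fold (5.52-6.18) and 35.6-fold (32.1-39.5).

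Among the collagen XI genes, *Col11a1* was the only 1 of the 8 members that did not differ between clusters 0 and 1 of the culture beyond counting error. Clusters 0, 1 and 2 of the culture had 544, 556 and 1417 CPM, and cluster 1 was 1.02-fold higher than cluster 0 (0.989-1.06). In the tail it was at 216, 479 and 2235 CPM. *Col11a2* had 27, 65 and 194 UMIs in these clusters of the culture, or 1.63, 6.07 and 58.3 CPM. In the tail it was at 4.44, 33.0 and 338 CPM. In cluster 0 of the culture its level did not differ beyond counting error from that of the pluripotent cluster 4 (1.74-fold, 0.833-3.88).

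*Acan* was close to absent from cluster 0 of the tail, with 10 UMIs in 685 cells or 0.988 CPM (0.474-1.82), while clusters 1 and 2 had 27.9 and 259 CPM. In clusters 0, 1 and 2 of the culture it was at 11.3 (9.71-13.01), 38.8 and 208 CPM. The difference between clusters 2 and 0 was 262-fold (142-548) in the tail and 18.5-fold (15.7-21.8) in the culture. Of the *Acan* UMIs of the tail, 84.6% lay in cluster 2 and 0.988% in cluster 0, while in the culture 50.1% lay in cluster 2 and 13.5% in cluster 0. *Matn4* was at 60.6, 127 and 617 CPM in the culture and at 44.5, 182 and 837 CPM in the tail, and had the gradients closest to each other, 10.2-fold (9.44-10.99) and 18.8-fold (17.0-20.8).

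**Figure D2:**
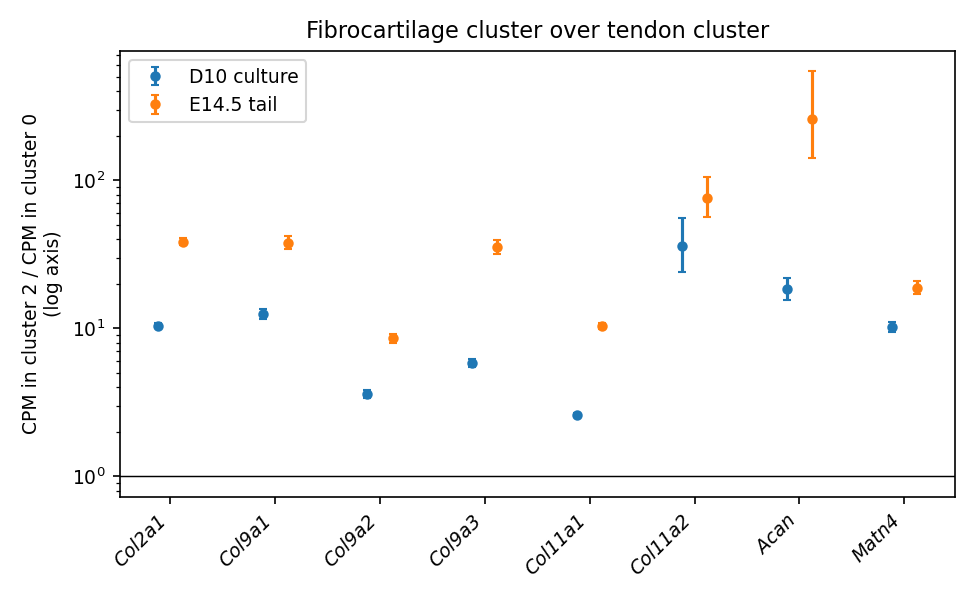
Ratio of the CPM in cluster 2 to the CPM in cluster 0 (vertical log axis) for each of 8 members (horizontal axis) in the D10 culture and the E14.5 tail, with exact 95% intervals for counting error. For all 8 members the tail point lies above the culture point, from *Matn4* (18.8 and 10.2) to *Acan* (262 and 18.5).

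The gradient was thus steeper in the tail for 8 of 8 members. With background levels taken off (those of pluripotent cluster 4 in the culture and erythroid cluster 11 in the tail) this no longer held for *Col11a2*, whose gradient was then 83.2-fold in the culture and 76.1-fold in the tail. The ratio of the tail gradient to the culture gradient was 1.84 (1.63-2.09) for *Matn4*, 2.12 (1.29-3.50) for *Col11a2*, 2.37 (2.16-2.60) for *Col9a2* and 3.02 (2.67-3.42) for *Col9a1*. It was 3.71 (3.45-3.99) for *Col2a1*, 3.97 (3.74-4.21) for *Col11a1*, 6.09 (5.42-6.85) for *Col9a3* and 14.2 (7.45-27.0) for *Acan*, whose tail value rests on the 10 UMIs of cluster 0. These intervals are Wald intervals on the log scale from the 4 counts. The libraries differed in depth, with a median of 3696 UMIs per cell in cluster 2 of the culture and 13136 in that of the tail, and the part of depth in these differences was not tested.

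Comparing the D10 culture with the tail within the same cluster asks how far the cultured cells match their counterparts in the embryo. In cluster 2 all 8 members were lower in the culture. *Col2a1* was at 0.53 times the tail level (0.516-0.545), *Col9a1* at 0.40 (0.385-0.424), *Col9a2* at 0.59 (0.552-0.621), *Col9a3* at 0.58 (0.554-0.610) and *Col11a1* at 0.63 (0.611-0.658). *Matn4* was at 0.74 (0.697-0.782) and *Acan* at 0.80 (0.726-0.890). *Col11a2* stood apart at 0.17 times the tail level (0.147-0.201), from 194 UMIs in the culture and 1118 in the tail. By the 2-fold rule *Col9a1* and *Col11a2* were called lower, 2 of 8 members, where 13% of all 9986 genes were called lower and 4.86% higher. The median log2 ratio was -0.78 over the members and -0.18 over all genes tested. The latter was 0.05 under TMM scaling and -0.04 among genes with at least 50 CPM in the higher group. The *Acan* difference depended on how cells were weighted, since the mean of per-cell CPM gave a ratio of 1.002 and TMM scaling 0.943. Markers of other cells moved with this comparison. Haemoglobin transcripts, which belong to erythroid cells, were almost all in the tail, with 2 *Hbb-bs* UMIs in the culture (0.601 CPM) and 4410 in the tail (1333 CPM), and 4 of 4 tested erythroid markers, which passed the filter only through the tail, were called lower in the culture. All 3 proliferation markers were called higher, such as *Top2a* at 125 and 24.5 CPM. The only endoderm and neural markers tested, and 1 of 2 epithelial markers tested, were called lower. Median depth was 3696 UMIs in the culture and 13136 in the tail, which favours passing the filter through the tail and a call as lower. Of the general fibroblast markers tested 2 of 6 were called higher, and of the somite and presomitic mesoderm markers 2 of 4. With haemoglobin, mitochondrial and ribosomal protein genes left out of the totals, the ratio of *Acan* was 0.790 and that of *Col9a3* 0.572. The part of proliferation and of the other cell markers in these differences was not tested.

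In cluster 0 the direction was the opposite for 7 of the 8 members. *Col9a3* was 3.54-fold higher in the culture (3.18-3.95), *Col11a1* 2.51-fold (2.40-2.64), *Col2a1* 1.97-fold (1.84-2.11), *Col9a2* 1.39-fold (1.29-1.49), *Matn4* 1.36-fold (1.22-1.52) and *Col9a1* 1.22-fold (1.09-1.37). *Acan* was 11.4-fold higher (6.07-24.2), from 187 UMIs in the culture and 10 in the tail. *Col11a2* was again lower, at 0.37 times the tail level (0.218-0.603), and at 0.16 with the background levels taken off. Of 6 members that passed the detection filter, *Col9a3* and *Col11a1* were called higher, 2 of 6, against 5.76% of 10418 genes called higher and 13.6% called lower. *Acan* and *Col11a2* did not pass it. The members that passed had a median log2 ratio of 0.73, while that of all genes tested was -0.20. The latter was -0.04 among genes with at least 50 CPM in the higher group. Of these 4628 genes, 378 were called higher and 381 lower. As in cluster 2, 3 of 3 proliferation markers were called higher in the culture, with *Top2a* at 142 and 20.2 CPM, and 4 of 4 erythroid markers lower, again tested only through the tail, with *Hbb-bs* at 1.99 and 878 CPM. The only muscle and neural markers tested were called lower too. Median depth here was 4918.5 UMIs in the culture and 13463 in the tail, with the same limit of the filter as in cluster 2. Of 4 somite and presomitic mesoderm markers tested, 3 were called higher and 1 lower. Their part in these differences was not tested.

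Free RNA in droplets gives a low level of a gene in every cell, and its measure here is the level in cells that should lack these genes. The pluripotent cluster 4 of the culture had 26.9 CPM of *Col2a1*, 18.3 CPM of *Col11a1*, 11.3 CPM of *Col9a3* and 3.07 CPM of *Acan*. The level in cluster 0 of the culture was 8.10-fold (7.22-9.12), 29.7-fold (25.9-34.1), 12.1-fold (10.2-14.6) and 3.67-fold (2.56-5.40) above these. Cluster 0 had a median of 4918.5 UMIs per cell against 10369.5 in cluster 4. The same free RNA per cell gives a higher CPM at low depth, and its part in these folds was not tested. With the cluster 4 level taken off the culture and the cluster 11 level off the tail, *Col9a3* was 3.51-fold and *Col11a1* 2.45-fold higher in cluster 0 of the culture. Of the 23 cells of culture cluster 4 with 4 or more members detected, 17 were called doublets by Scrublet, and these 23 cells held 62.6% of the member UMIs of that cluster.

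**Figure D3:**
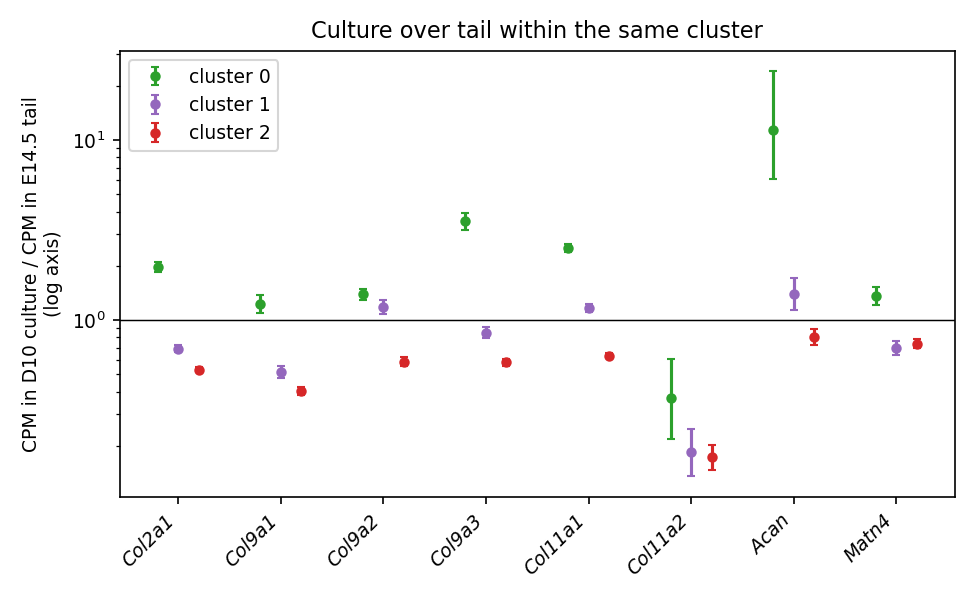
Ratio of the CPM in the D10 culture to the CPM in the E14.5 tail (vertical log axis) within clusters 0, 1 and 2 for each of 8 members (horizontal axis), with exact 95% intervals for counting error. The cluster 0 points lie above 1 for 7 members and the cluster 2 points below 1 for all 8, and *Col11a2* lies below 1 in the 3 clusters.

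In the proliferating cluster 1, the ratio of culture to tail lay between those of clusters 0 and 2 for 7 of 8 members, and for *Matn4* it was the lowest of the 3. *Col2a1* (0.69, 0.663-0.725), *Col9a1* (0.51, 0.475-0.556), *Matn4* (0.70, 0.641-0.766) and *Col9a3* (0.85, 0.790-0.908) were lower in the culture than in the tail. *Col11a1* (1.16, 1.11-1.22), *Col9a2* (1.18, 1.09-1.29) and *Acan* (1.39, 1.13-1.71) were higher. *Col11a2*, at 0.18 times the tail level (0.135-0.248), was the only 1 of 8 members called, where 13.6% of 11232 genes were called lower and 5.5% higher. It passed the filter only through the tail, with a UMI in 2.81% of culture cells and 11.8% of tail cells, which favours a call as lower. As in clusters 0 and 2, the 4 erythroid markers tested were lower in the culture, with *Hbb-bs* at 0.374 and 2433 CPM, and so were the only muscle, neural and endoderm markers tested, *Tnnt1* (3.46 and 33.0 CPM), *Rtn1* (0.654 and 11.5 CPM) and *Rbp4* (2.61 and 22.2 CPM). All of these passed only through the tail. Of 4 somite and presomitic mesoderm markers tested, 3 were called higher and 1 lower. The part of these markers in the members' ratios was not tested. The *Col9a3* ratio changed side to 1.06 under TMM scaling. These ratios are of sums, and in the tail 19 of 186 cells held 67.0% of the member UMIs. By the median cell the culture was higher, with 1125 CPM over the 8 members in the culture and 288 CPM in the tail. In thinned cells *Col2a1* was found in 49.1% of culture cells and 32.3% of tail cells, and *Col9a3* in 36.5% and 21.5%. *Col9a1* was found in 23.8% and 23.7%, and *Matn4* in 23.0% and 21.5%, or 24.7% and 29.7% with 5000 UMIs per cell. *Col11a2* had the other order, at 1.57% and 6.99%.

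The balance between chains of the same collagen was compared between the libraries. In collagen XI, there were 0.151 *Col11a2* UMIs per *Col11a1* UMI in cluster 2 of the tail (0.142-0.161) and 0.0412 in that of the culture (0.0355-0.0475), a 3.67-fold difference (3.14-4.30). In clusters 1 and 0 it was 6.32-fold (4.70-8.51) and 6.87-fold (4.25-11.1), in the same direction. In both libraries the ratio was lowest in cluster 0 and highest in cluster 2. In collagen IX, cluster 2 of the culture had 1.17 *Col9a3* UMIs per *Col9a1* UMI (1.11-1.24) and that of the tail 0.812 (0.781-0.845). For *Col9a2* per *Col9a1* these values were 0.775 (0.728-0.825) and 0.535 (0.512-0.559), while in cluster 0 the difference was within counting error, the tail at 0.879 times the culture (0.769-1.01). The excess of *Col9a3* in the culture was larger in cluster 0, with 2.52 UMIs per *Col9a1* UMI against 0.868 in the tail. A ratio within a cell group does not depend on the scaling to total UMIs.

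Relative to *Col2a1*, *Acan* was higher in the culture in each of the 3 clusters, with 0.0916 UMIs per *Col2a1* UMI in cluster 2 (0.0846-0.0991) against 0.0604 (0.0563-0.0648) in the tail. In cluster 0 the values were 0.0516 and 0.00891. *Matn4* per *Col2a1* was the same within counting error in cluster 1, at 0.255 and 0.252, and was 1.39 times as high in the culture as in the tail in cluster 2. In cluster 0 it was the other way, at 0.278 in the culture (0.259-0.298) and 0.402 in the tail (0.360-0.449).

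Single cells were compared after drawing 3000 UMIs from each, since the libraries differed in depth. This left 641 of 855 culture cells and 240 of 241 tail cells of cluster 2. Of these, 89.4% had a UMI of *Col2a1* in the culture (86.7-91.7) and 85% in the tail (79.8-89.3), where without thinning it was 94.0% and 97.1%. With 5000 UMIs per cell, which left 130 and 236 cells, it was 86.2% and 91.9%, so no order of the libraries is read from this share. In the background clusters, 3.79% of thinned pluripotent cells (2.74-5.11) and 4% of erythroid cells (1.31-9.09) had one, and their median depths were 10369.5 and 8391.5 UMIs. *Acan* was found in 31.0% of cluster 2 cells of the culture (27.5-34.8) and 26.7% of those of the tail (21.2-32.7), which overlap, and in 34.5% and 35.7% without thinning. *Col11a2* was found in 8.89% (6.80-11.4) and 28.8% (23.1-34.9). *Col9a3* was found in more cells of the culture, 75.8% (72.3-79.1) against 60.4% (53.9-66.6), and in 78.4% and 75.5% without thinning. This goes against its lower summed level in the culture, so no order is read from it. In cluster 0, *Acan* was found in 3.04% of culture cells (2.42-3.78) and 0.147% of tail cells (0.00373-0.819), against 0.648% of pluripotent cells and 0 of 125 erythroid cells, which allows a share of up to 2.4%.

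At this depth the median cluster 2 cell had 5 of the 8 members in both libraries. A cell with all 8 was rarer in the culture, 42 of 641 cells (6.55%), than in the tail, 44 of 240 (18.3%), and 1.56% and 0.417% of cells had none. At least 4 members were found in 79.1% of culture cells and 67.1% of tail cells, the other order, and at least 6 in 280 of 641 and 108 of 240. No cell of cluster 0 had all 8 in either library. Summed over the 8 members, the median cluster 2 cell had 5247 CPM in the culture and 6054 CPM in the tail. The percentile 10 of these cells lay at 1439 and 1257 CPM, and the percentile 90 at 14374 CPM in the culture and at 27624 CPM in the tail. At percentile 30 the culture was above the tail, with 3284 and 2237 CPM, and at percentile 80 below it, with 10135 and 21557 CPM. In cluster 0 the median cell had 889 CPM in the culture and 287 CPM in the tail.

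Among clusters 0 to 2, cluster 1 of the tail was the most uneven. Its median cell had 288 CPM, like the 287 CPM of cluster 0, but the 19 of 186 cells with the most member UMIs held 67.0% of its member UMIs. In cluster 1 of the culture the median cell had 1125 CPM and the 135 of 1353 cells with the most member UMIs held 40.5%. The mean levels of this cluster in the tail therefore describe few cells. Because cells were thinned for shares but not for these sums, cells of low depth have coarser values, and the median depth of cluster 1 was 7324 UMIs in the culture and 22536 in the tail.

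**Figure D4:**
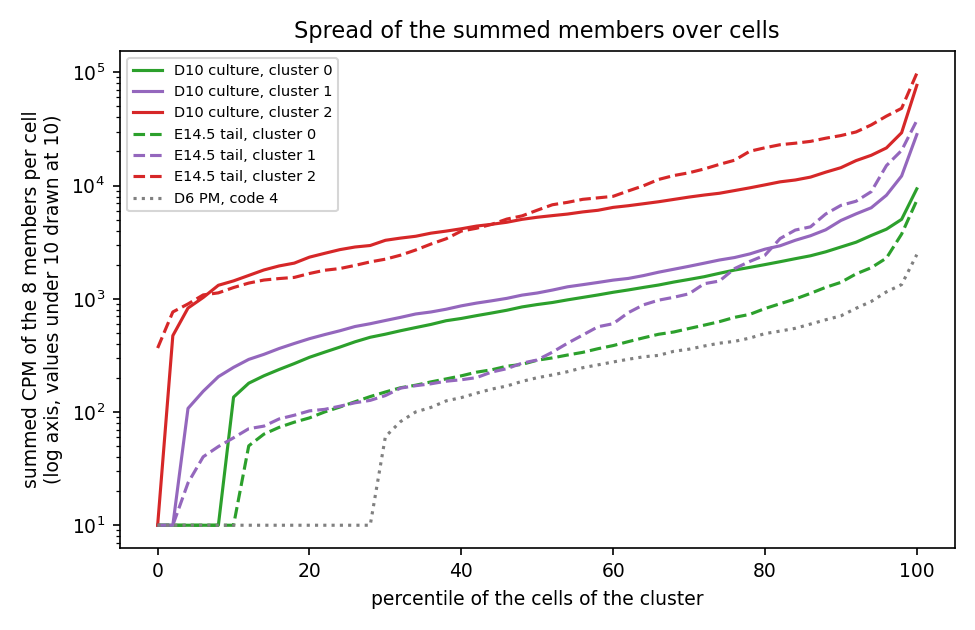
Summed CPM of the 8 members per cell (vertical log axis, values under 10 drawn at 10) against the percentile of the cells within each cluster (horizontal axis), for clusters 0, 1 and 2 of the D10 culture (solid) and the E14.5 tail (dashed) and for code 4 of D6 PM (dotted). The curves of cluster 2 cross near the middle, with medians of 5247 and 6054 CPM, and tail cluster 1 runs along tail cluster 0 up to its median of 288 CPM.

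Within cluster 2, cells with an *Acan* UMI were compared with cells without one, both at 3000 UMIs. In the tail the 64 cells with *Acan* had 9125 CPM of *Col2a1* and the 176 cells without it 1922 CPM, a 4.75-fold difference. For *Col9a3* these values were 3328 and 434 CPM, and for *Col11a2* 927 and 53.0 CPM. In the culture the 199 cells with *Acan* had 3913 CPM of *Col2a1* and the 442 cells without it 1465 CPM, a 2.67-fold difference. *Scx*, the tendon transcription factor, went the other way in both libraries, with 510 CPM and 2670 CPM in the tail and 1487 and 2146 CPM in the culture. Across cells of cluster 2, Pearson's r of the logged counts over the 28 pairs of members had a median of 0.42 in the culture (641 cells, 0.24 to 0.61) and 0.64 in the tail (240 cells, 0.52 to 0.78). All points of a library share its depth and its free RNA, and cells are not replicates.

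In the tail 2 cells had over 20 UMIs of *T*, a gene of the notochord. One, in cluster 2, had 54 *T* and 118 *Shh* UMIs and 403 UMIs of *Col2a1*, and without the pair the level of *Col2a1* in that cluster was 4204 CPM. The other, in the shallow cluster 6 of 86 cells, held 135 of the 146 member UMIs of that cluster, 92.5%. Without it *Col9a1* there went from 157 to 4.90 CPM, and *Acan* from 53.8 CPM to 0 UMIs. *Col2a1* there kept 6 of its 29 UMIs, and *Matn4*, at 2 UMIs, did not come from this cell. The levels of the other members of tail cluster 6 in the plot of levels by cluster are mostly those of this cell.

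Between D6 and D10 the members were higher in the culture as a whole. Over all cells, 6 members passed the filter, each only through D10, so that they had to be higher there and nothing is read from their count. All 6 were called higher at D10, against 7.79% of 8845 genes called higher and 5.86% called lower. *Col2a1* went from 12.7 to 326 CPM, 25.6-fold (23.7-27.7). *Col9a1* was 13.1-fold higher (11.7-14.6), *Col9a2* 17.8-fold (15.99-19.8), *Col9a3* 24.7-fold (21.99-27.7) and *Col11a1* 17.8-fold (16.7-18.9). *Matn4* was 202-fold higher (133-323), from 22 UMIs at D6. *Acan*, with 18 UMIs at D6, was 74.6-fold higher (47.0-126) and *Col11a2* 1.72-fold (1.43-2.09), and both were under the filter. By the mean of per-cell CPM *Col9a3* was 39.0-fold and *Acan* 145-fold higher. Markers of other cells moved with this comparison. The endoderm marker *Sox17* went from 277 to 7.06 CPM, and all 4 endoderm markers tested, which passed only through D6, were called lower at D10. *Dcn*, of 6 general fibroblast markers called higher, went from 107 to 928 CPM, and *Scx*, of 4 tendon markers called higher that passed only through D10, from 21.1 to 1476 CPM. *Egr1*, the only other tendon marker tested, was called lower at D10, from 114 to 47.7 CPM. Their part in the members' difference was not tested. In bulk sums over all cells, more cells of a type and more RNA per cell cannot be told apart.

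At D6, 56.4% of the member UMIs lay in code 4, a cluster of 700 cells with the somite genes *Meox1* and *Tcf15*. It had 158 CPM of *Col11a1* (149-169), 54.0 CPM of *Col9a1*, 33.7 CPM of *Col2a1*, 19.9 CPM of *Col11a2* and 10.7 CPM of *Col9a2*. *Col9a3* had 14 UMIs (2.30 CPM), and *Acan* and *Matn4* had none in 6078310 UMIs, which allows up to 0.494 CPM. No cells that should lack these genes were set apart in D6 PM. The fibroblast-like code 5 of the same library had 3.73 CPM of *Col11a1* (2.34-5.65), 1.02 CPM of *Col9a1*, 1.36 CPM of *Col11a2*, 0.678 CPM of *Col9a2* and 0 UMIs of *Col2a1*, which allows up to 0.509 CPM. Code 4 was above code 5 beyond counting error for these 5 genes and not for *Col9a3*, and aggrecan and matrilin 4 were not detectable in it at this depth. *Col9a2* was not particular to code 4, since code 2 had 11.4 CPM of it (9.59-13.5). The largest D6 cluster, the endoderm-like code 1, had another set, with 15.6 CPM of *Col2a1* and 9.58 CPM of *Col9a3* but 0.770 CPM of *Col9a1*. Code 3 had a like set, with 18.3, 10.5 and 0.131 CPM of these genes. *Col9a3* per *Col9a1* was 12.4 UMIs (7.21-23.2) in code 1 and 0.0427 (0.0231-0.0727) in code 4. The ratio of these chains thus differed between cells of 1 library, at low levels of *Col9a3* in both. *Col10a1* had 5 UMIs in all of D6 PM, 4 of them in code 5, or 0.0964 CPM (0.0313-0.225).

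Set beside the somite-like cells of D6, cluster 2 at D10 was 67.3-fold higher in *Col2a1* (58.6-77.7), 349-fold in *Col9a3* (207-639) and 8.94-fold in *Col11a1* (8.34-9.60), and at least 422-fold higher in *Acan* and 1251-fold in *Matn4* against a floor of 3 counts. Cluster 0 at D10 was 6.47-fold higher in *Col2a1* (5.62-7.49) and did not differ in *Col9a1* beyond counting error (1.01-fold, 0.891-1.15). *Col11a2* was lower in cluster 0 at D10 than in these D6 cells, 0.082 times (0.0518-0.125). The *Col11a2* UMIs per *Col11a1* UMI were 0.126 (0.103-0.152) in code 4 of D6, between the 0.0412 of cluster 2 of the culture and the 0.151 of cluster 2 of the tail. The clusters of D6 and D10 were made separately and descent between them was not measured.

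Other cartilage matrix genes were taken from a list of 25. In cluster 2, 15 of them passed the filter, most only through the tail, where they are high and so had to differ. The 12 called lower in the culture and the 1 called higher are therefore given as values and not compared with the members. Of all 9986 genes 13% were called lower and 4.86% higher. *Matn1*, which encodes matrilin 1, had 3 UMIs in the culture and 561 in the tail (0.902 and 170 CPM). *Hapln1*, the link protein that binds aggrecan to hyaluronan, was at 28.0 and 635 CPM, a ratio of 0.044 (0.0354-0.0542). *Snorc* was at 1.20 and 82.5 CPM, and *Matn3*, encoding matrilin 3, at 2.41 and 90.1 CPM. The gene called higher in the culture was *Fmod*, encoding fibromodulin, a proteoglycan of tendon and cartilage fibrils, at 746 and 102 CPM, 7.30-fold (6.52-8.21).

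**Figure D5:**
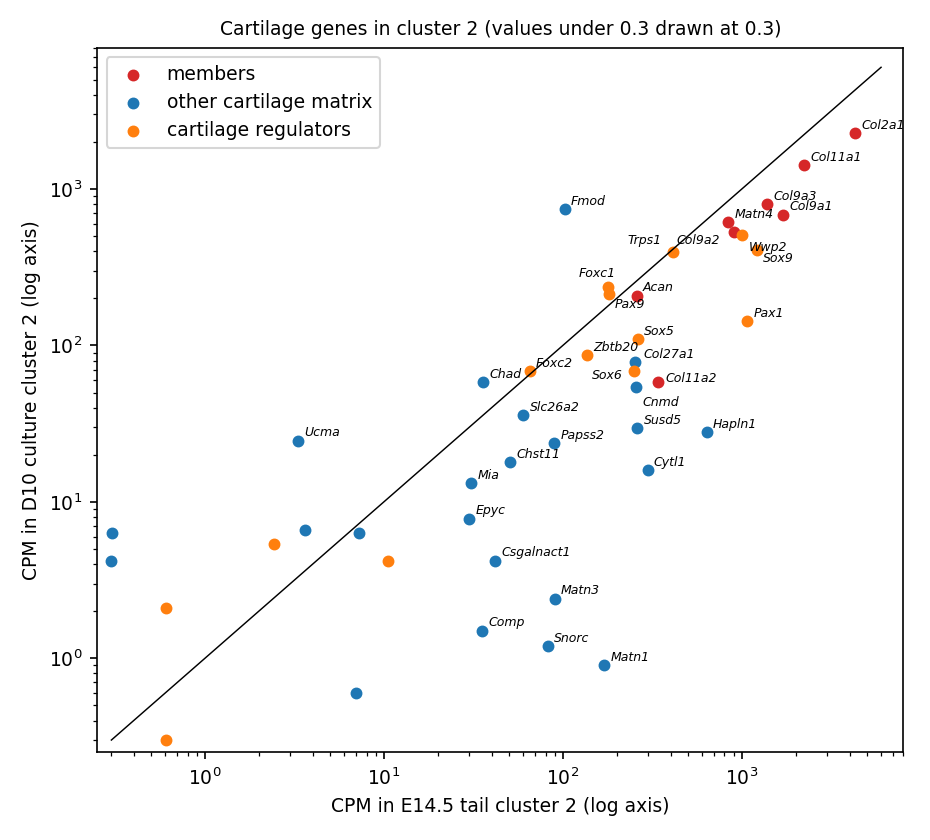
Level in cluster 2 of the D10 culture (vertical log axis, CPM) against that of the E14.5 tail (horizontal log axis, CPM) for the members, other cartilage matrix genes and cartilage regulators, 1 point a gene, with a line at equal levels and values under 0.3 drawn at 0.3. All 8 members lie below the line, of which *Acan* is nearest at 208 and 259 CPM and *Col11a2* farthest at 58.3 and 338 CPM. Of the other cartilage matrix genes, *Matn1* (0.902 and 170 CPM) and *Hapln1* (28.0 and 635 CPM) lie below it and *Fmod* above it. These were not compared with the members.

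Of the regulators of cartilage genes, 5 of 11 that passed were called lower in cluster 2 of the culture and none higher. In this comparison 13% of all 9986 genes were called lower and 4.86% higher. The limit of the filter named above holds for the counts of these lists too. *Sox9* was at 410 CPM in the culture and 1214 CPM in the tail (0.34, 0.317-0.359), *Sox5* at 110 and 262 CPM, *Sox6* at 68.6 and 249.1 CPM, and *Pax1*, a sclerotome factor, at 143 and 1073 CPM. *Sox9* thus differed more between the libraries than *Col2a1* did. Of the list of hypertrophy and bone genes, 5 of 14 passed and 3 were called lower, and *Ihh*, *Ibsp* and *Mmp13* had 0 UMIs in cluster 2 of the culture and 20, 2 and 0 in that of the tail. Of 7 collagens of tendon and fibrous tissue, 2 were called higher in the culture and none lower, *Col5a2* at 458 and 133 CPM and *Col14a1* at 613 and 274 CPM, where 4.86% of all genes were called higher. The median log2 ratio of the 7 was 0.79. *Col1a1*, which was not called, was at 1244 CPM in the culture and 722 CPM in the tail.

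By the pattern over 27 sums of cluster and library with at least 50 cells, 6 other members were among the first 10 genes in likeness to *Col2a1*. Pearson's r of log2(CPM + 10) was 0.93 for *Col9a3* and *Col9a2*, 0.92 for *Col9a1* and *Matn4*, 0.91 for *Col11a1*, 0.88 for *Acan* and 0.77 for *Col11a2*, which ranked 37 of 8459 genes. The first genes outside the list were *Wwp2*, a ubiquitin ligase gene, with r = 0.91, *Sox9* with 0.89, *Fibin* with 0.87 and *Sox5* with 0.86. These sums share 3 libraries, their depth and their free RNA, and the values are a description.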

How the data were processed

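Single-cell RNA-seq counts of 3 libraries were analysed. The values deposited by the authors are counts, whole UMIs that were not normalized, which came from Cell Ranger and 10x 3′ libraries with multi-mapping reads ignored and clustered with Seurat 3.0. The authors had filtered cells by mitochondrial share (highest 7.50% in the files) and depth, and the files held fewer cells than the study's text gives. The genome build of these counts is not given in the sources used here. Cluster codes were matched to the study's numbers 0 to 10 by the shares of detecting cells in its marker tables, and 11 to 13 by order.

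UMIs were summed per cluster and library (Python 3.11.15, NumPy 2.4.6, SciPy 1.17.1). Ratios have exact conditional binomial intervals, levels exact Poisson intervals and shares Clopper-Pearson intervals. A call is a 2-fold ratio in a gene detected in 10% or more of one group's cells, a rule tested on simulated data. A ratio against 0 UMIs used a floor of 3 counts over the group. Cells were thinned to 3000 UMIs for shares (seed 1). Doublets called by Scrublet (Scanpy 1.11.5, expected rate 6%; 116 of the culture, 9 of the tail and 81 of D6 PM) were kept except in an alternative. TMM scaling used edgeR 4.0.16. The members and gene lists were chosen with earlier results of these data known, and the genes named are the members, genes of those lists and the first genes by likeness. Alternatives varied the fold, filter, scaling, weighting and cells counted. Whether counting used strand is not given, and in RefSeq *Col9a3* overlaps *Tcfl5*, *Matn4* overlaps *Rbpjl* and *Col10a1* lies within *Nt5dc1*.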

Additional observations from a re-analysis of the deposited data

Results flagged for a closer look

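For 7 of the 8 members with both values, the culture was above the tail in cluster 0 and below it in cluster 2, with neither counting interval holding 1. For *Acan*, 1 of the 7, the cluster 2 ratio was 1.002 by the mean of per-cell CPM. The tail gradient over the culture gradient was 3.71 for *Col2a1*, 3.02 for *Col9a1*, 2.37 for *Col9a2*, 6.09 for *Col9a3*, 3.97 for *Col11a1*, 14.2 for *Acan* and 1.84 for *Matn4*. With 1 library a condition the difference was not tested.

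Members were also found outside clusters 0, 1 and 2. In 12 clusters at least 1 member lay above the highest level that the counting intervals of culture cluster 4 and tail clusters 4 and 11 allow. After leaving out cells with 4 or more members detected, this held in 10 clusters. Given by the member with the most UMIs, these were *Col2a1* at 161 CPM in tail cluster 13 and at 86.2 CPM in the epithelial cluster 7 of the culture. *Col2a1* also had 35.1 CPM in culture cluster 8, and 41.4 CPM in the muscle cluster 8 of the tail. It was *Col11a1* at 155 CPM in code 4 of D6 PM, and at 66.1, 43.4 and 57.5 CPM in culture clusters 3, 5 and 6. Clusters 5 and 6 had a median of 2399 and 1424 UMIs per cell against 10369.5 in culture cluster 4, and as the same free RNA per cell gives a higher CPM at low depth, their levels are not read as above background. It was *Col9a3* at 50.8 CPM in the nerve cluster 9 of the tail and at 28.5 CPM in tail cluster 3. In the 71 cells of tail cluster 5, 5 cells with 4 or more members held 89.7% of the member UMIs, and without them no member was above that level.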

How the results depend on the processing

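Of the 69 counts of called members under alternatives, 62 were within 1.5 times the value reported. With a fold of 1.5 the members called in the culture against the tail were 6 in cluster 2 and 2 in cluster 1. These were all lower, where 2563 of 9986 and 2942 of 11232 genes were called lower, and 1102 and 1284 higher. In cluster 0 *Col2a1*, *Col9a3* and *Col11a1* were called at this fold, all as higher. There 1159 of 10418 genes were called higher and 2810 lower. With a fold of 4 there was 1 in cluster 2, *Col11a2* as lower, where 149 of 9986 genes were called higher and 367 lower. In cluster 0 there were then 0, where 206 of 10418 genes were called higher and 534 lower. Without a filter beyond 1 UMI there were 4 in cluster 0, *Col9a3*, *Col11a1* and *Acan* higher and *Col11a2* lower. There 4203 of 25404 genes were called higher and 7586 lower. With at least 50 CPM in the higher group there were 0 in cluster 1, where 333 of 4588 genes were called higher and 294 lower. With the background level subtracted there were 2 in cluster 1, and no count over all genes was made for it. This alternative was chosen after seeing the data, as was leaving out the *T* cells. Among 552 values of single ratios, 83 were scored as moved and 469 as the same, and none of a called member changed side of 1. Of members not called, *Acan* in cluster 2 and *Col9a3* in cluster 1 of the culture against the tail changed side in 1 alternative each. With 5000 UMIs per cell 28 shares of cells moved beyond their interval and 20 did not. Without thinning 44 moved and 4 did not. TMM scaling raised the share of higher among called genes from 27.2% to 44.3% in cluster 2 of the culture against the tail, from 29.7% to 51.8% in cluster 0 and from 28.8% to 51.0% in cluster 1, and lowered it from 31.4% to 17.0% in cluster 2 against cluster 0 of the culture. No paired analysis was possible because each group held 1 library. With 1 library a condition, culture, embryo, depth and library preparation cannot be told apart. Depth limits the scarce members, as for *Acan* in tail cluster 0, where 10 UMIs give 0.474 to 1.82 CPM.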
